A study of Homo sapiens with 4 samples.

Results

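Described here are 48 genes of mitosis out of 20515 genes in the deposited count table. They were taken by symbol from a list of mitotic kinases, kinetochore, spindle and anaphase genes. The list was chosen with earlier results of these data known, so counts of its genes are descriptive and no independent test. All 48 were found, and all 48 passed the filter on low counts. The cells were T47D, a long-established human breast cancer line of luminal type. Poly(A) RNA was sequenced from 2 control samples without treatment and from 2 samples treated with baicalein, a flavone from skullcap roots that inhibits lipoxygenases. The sources used here do not give dose, duration or vehicle, and both groups are the same cell line with no other agent or genotype named. The labels do not say whether replicate libraries were grown as separate cultures. The spread behind each p-value may therefore be technical. The comparison addresses which genes differ in expression after baicalein.

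In G2 phase the kinase CDK1, bound to A- and B-type cyclins, is switched on by CDC25 phosphatases and drives entry into mitosis together with the Polo and Aurora kinases. Chromosomes are then attached to the spindle through kinetochores, protein assemblies built on centromeric chromatin, and the spindle checkpoint holds back the ubiquitin ligase APC/C until every kinetochore is attached. Most of these genes are transcribed in a wave in G2 and mitosis, under the control of MuvB complexes with B-MYB (gene MYBL2) and FOXM1, and their summed RNA is widely used as a measure of proliferation.

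Of the 48 genes, 47 were lower after baicalein and 1, MIS12, was higher by edgeR's quasi-likelihood F test, adjusted after Benjamini-Hochberg over 18369 genes. The same test called 75% of all tested genes, 37.6% lower and 37.4% higher. At least 2-fold falls were found in 42 of the 48 genes against 15.2% of all tested genes, and at least 4-fold falls in 14 against 4.59%. A test against a 1.5-fold change left 45 lower and 1 higher, against 19.5% and 16.8% of all tested genes. In 47 of the 48 genes both baicalein libraries lay below both controls, as in 43.5% of all tested genes. The median log2 fold change (baicalein minus control) was -1.60, against 0.0017 over all tested genes. Together the 48 genes took 0.709% and 0.685% of all counts in the controls and 0.222% and 0.218% after baicalein. The groups did not overlap, and the share was 3.17 times higher in controls (exact two-sided permutation test, p = 0.333, the smallest that 2 against 2 libraries allow). In bulk RNA, fewer cells in G2 and mitosis and less RNA of these genes per cell cannot be told apart.

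Levels are CPM (counts scaled to library size by TMM factors), given for replicate 1 and then replicate 2 of each group, and 1 member is compared with another only as CPM per kilobase of annotated exon. Total counts ranged from 38597207 to 56732569 per library, and the smallest count of any member in any library was 87, for CENPM in baicalein 2. Between the 2 controls the members' levels differed by at most 1.16 times (CENPK), and between the 2 baicalein libraries by at most 1.22 times (CDC25C). The labelled cell type was checked on 10 luminal breast epithelial markers. After baicalein 9 were lower, against 37.6% of all tested genes, and EPCAM did not pass. KRT8, the highest, stood at 4809 and 5521 CPM in the controls and at 2179 and 2269 CPM after baicalein. TFF1, the lowest, stood at only 1.40 and 1.36 CPM in the controls and at 0.585 and 0.376 CPM after baicalein. The summed level of the 10 markers was 14834 and 15926 CPM in the controls and 7186 and 7235 CPM after baicalein. Of 12 stromal, endothelial and leukocyte markers, 7 had no row in the table and 3 could be tested. Of these, COL1A1 rose from 95.2 ± 7.32 to 145 ± 7.13 CPM (mean ± SD, n = 2 libraries a group, as for all such values) and LUM from 0.265 ± 0.0141 to 1.05 ± 0.0354 CPM, and CD68 did not pass. The summed level of these 3 was 90.6 and 101 CPM in controls and 151 and 141 CPM after baicalein, and their part in the results below was not tested.

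**Figure D1:**
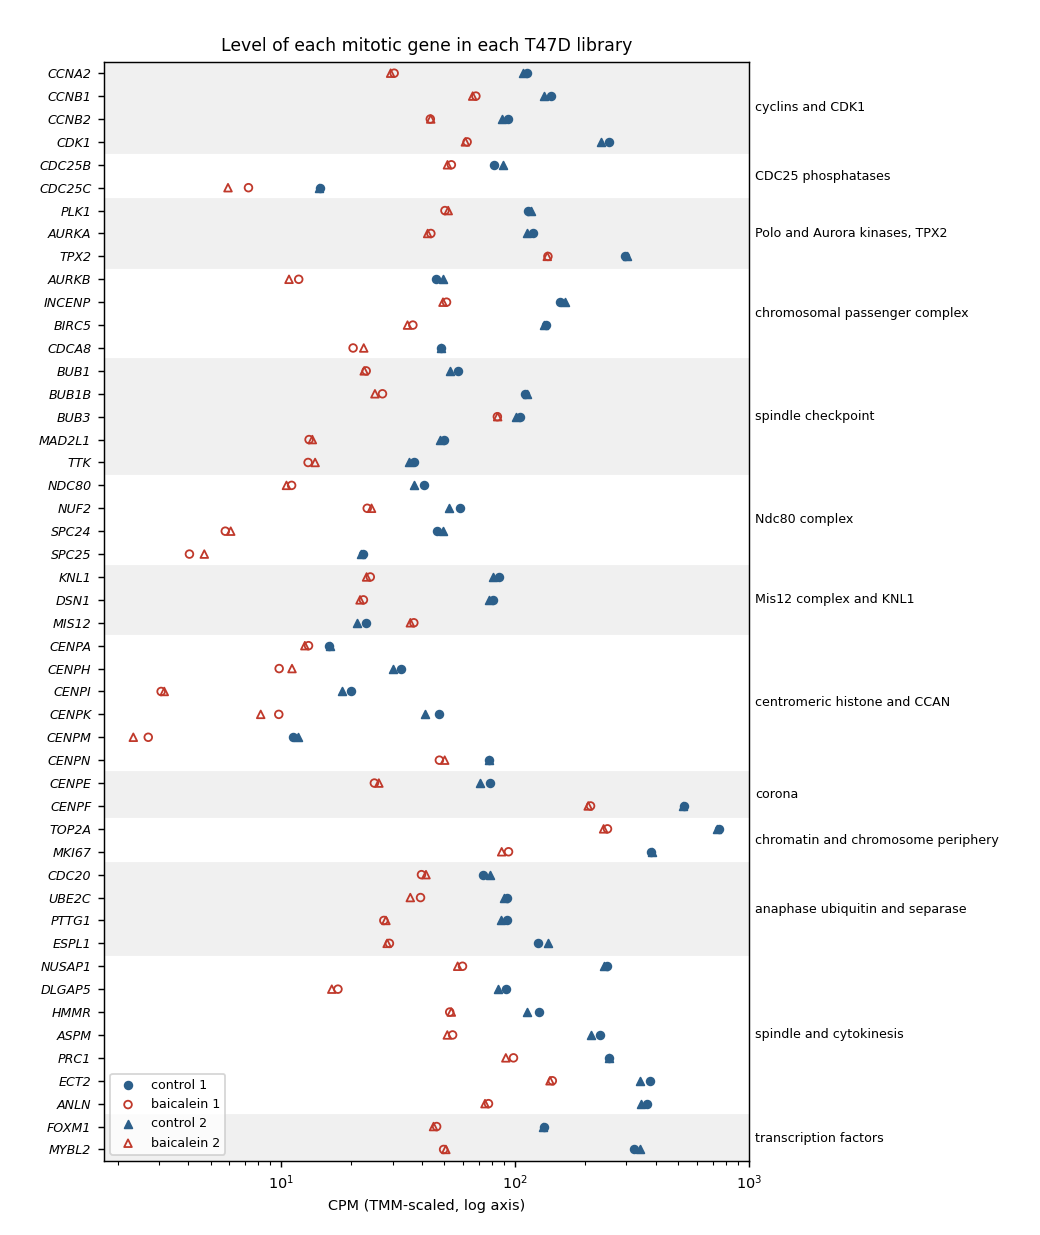
CPM of each of the 48 genes in each library on a log axis, with filled blue points for control and open red points for baicalein (circles replicate 1, triangles replicate 2), grouped by role. In 47 rows both open points lie left of both filled points, and in the row of MIS12 they lie to the right.

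The DNA before their start sites is shown because most members moved together, for 4 genes that fell by different amounts and for MIS12, the gene that rose. The CHR element (searched as TTTGAA and TTCGAA) is known as a docking site of MuvB complexes, the CCAAT box (CCAAT) as the site of NF-Y, and the E2F element was searched as TTTCCCGC, TTTGGCGC, TTTGCCGC and TTTCGCGC. Both strands were searched in the RefSeq windows of GRCh38.p14, from 250 bases before to 50 bases after the start. Such windows were present for 38 of the 48 genes. In 35 of them the last 30 bases lay in a GENCODE transcript of the gene. In those of CDC20, MKI67 and PTTG1 they did not, and these windows are counted below too. Printed are the 250 bases before the start, 5′ to 3′ on the strand of the gene, with matches in capitals.
CCNB2 (chr15:59104896-59105145, plus strand): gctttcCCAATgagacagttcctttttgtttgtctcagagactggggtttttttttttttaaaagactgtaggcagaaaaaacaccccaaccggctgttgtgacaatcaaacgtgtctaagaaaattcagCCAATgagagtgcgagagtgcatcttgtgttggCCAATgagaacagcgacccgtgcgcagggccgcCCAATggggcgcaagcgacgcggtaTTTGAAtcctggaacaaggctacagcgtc
PLK1 (chr16:23678639-23678888, plus strand): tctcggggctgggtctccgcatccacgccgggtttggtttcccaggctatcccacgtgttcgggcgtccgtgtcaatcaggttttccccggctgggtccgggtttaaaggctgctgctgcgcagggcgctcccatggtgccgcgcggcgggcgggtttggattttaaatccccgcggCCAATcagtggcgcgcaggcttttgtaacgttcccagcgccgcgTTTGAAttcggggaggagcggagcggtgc
CDK1 (chr10:60778081-60778330, plus strand): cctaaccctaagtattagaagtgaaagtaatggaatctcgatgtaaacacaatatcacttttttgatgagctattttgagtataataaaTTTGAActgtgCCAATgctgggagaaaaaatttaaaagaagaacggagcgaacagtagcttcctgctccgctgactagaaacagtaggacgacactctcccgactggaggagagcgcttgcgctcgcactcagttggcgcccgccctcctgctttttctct
DLGAP5 (chr14:55191586-55191835, minus strand): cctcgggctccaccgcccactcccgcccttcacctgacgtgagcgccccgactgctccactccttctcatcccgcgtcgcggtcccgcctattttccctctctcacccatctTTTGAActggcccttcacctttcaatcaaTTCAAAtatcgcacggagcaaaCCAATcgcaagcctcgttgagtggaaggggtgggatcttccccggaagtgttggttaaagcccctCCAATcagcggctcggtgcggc
MIS12 (chr17:5486124-5486373, plus strand): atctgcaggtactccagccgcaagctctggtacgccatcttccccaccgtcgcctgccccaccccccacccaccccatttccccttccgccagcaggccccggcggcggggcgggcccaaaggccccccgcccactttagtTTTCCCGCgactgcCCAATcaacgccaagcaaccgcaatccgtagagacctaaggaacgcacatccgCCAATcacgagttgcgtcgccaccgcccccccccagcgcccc

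CCNB2, which codes for cyclin B2, has 4 CCAAT boxes and a CHR element in this stretch, and PLK1 has 1 of each. CDK1 also has 1 CHR element and 1 CCAAT box there, and a match to the E2F element in the 50 bases after the start. DLGAP5 has 2 CHR elements and 2 CCAAT boxes before the start. The window of MIS12 holds 2 CCAAT boxes and an E2F match, and the CHR letters are not in it. A match to the CHR letters, anywhere in the window, was found in 25 of the 38 windows (65.8%) against 16.6% of all 27305 windows of this length. Within the 80 bases before the start, 12 of the 38 genes had such a match, against 3.85% of all windows. The other matches lay further upstream or reached past the start. At least 2 CCAAT boxes were found in 20 of 38 (52.6%) against 11.3%, and a CHR element together with a CCAAT box in 21 of 38 (55.3%) against 6.58%. E2F matches were in 4 of 38 windows (10.5%), those of CDK1, CENPA, MIS12 and NUSAP1, against 3.33% of all windows. All windows include those of genes not tested here. Of 12184 tested genes with a window, 1374 had a CHR element, 1659 at least 2 CCAAT boxes and 627 an E2F match. A CHR element together with a CCAAT box was found in 588 of them. In the windows of CDCA8 and MKI67 a CHR match and a CCAAT match overlapped each other.

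**Figure D2:**
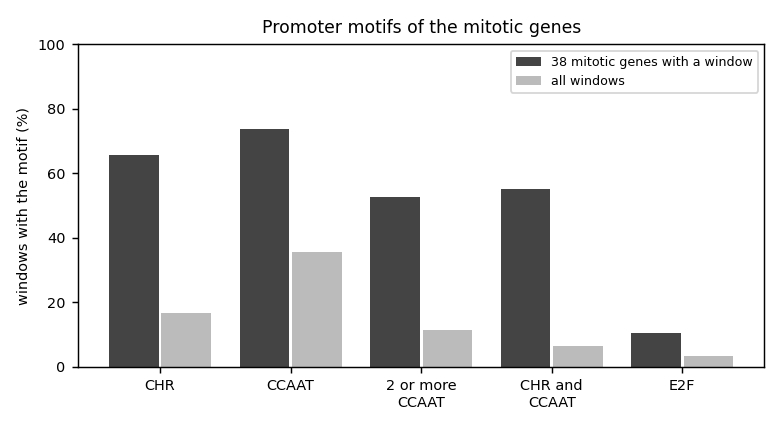
Percent of RefSeq promoter windows that hold each motif on either strand, for the 38 mitotic genes with a window (dark bars) and for all 27305 windows (light bars). The CHR bar is 65.8% for the mitotic genes and 16.6% for all windows.

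The median log2 fold change was -1.60 for the 25 members with a match to the searched CHR letters and -1.84 for the 13 without. Other forms of the element were not searched, so a gene without a match is not shown to lack it. Over all 12184 tested genes with a window the median was -0.08 with a CHR match and 0.0020 without. Of the genes with a match 43.0% were lower, and of those without 40.01%. SPC24 and MYBL2, with the most negative log2 fold changes among the 48 genes, have no CHR match in the window. CDC20, which has 2 CHR matches, was among the members that fell least. Other members went the other way: DLGAP5, with 3 CHR matches in its window, had -2.37, and CDC25B, with 0, had -0.70. Whether the element bears on the fall was not tested. These matches are letters in a window and not measured binding.

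**Figure D3:**
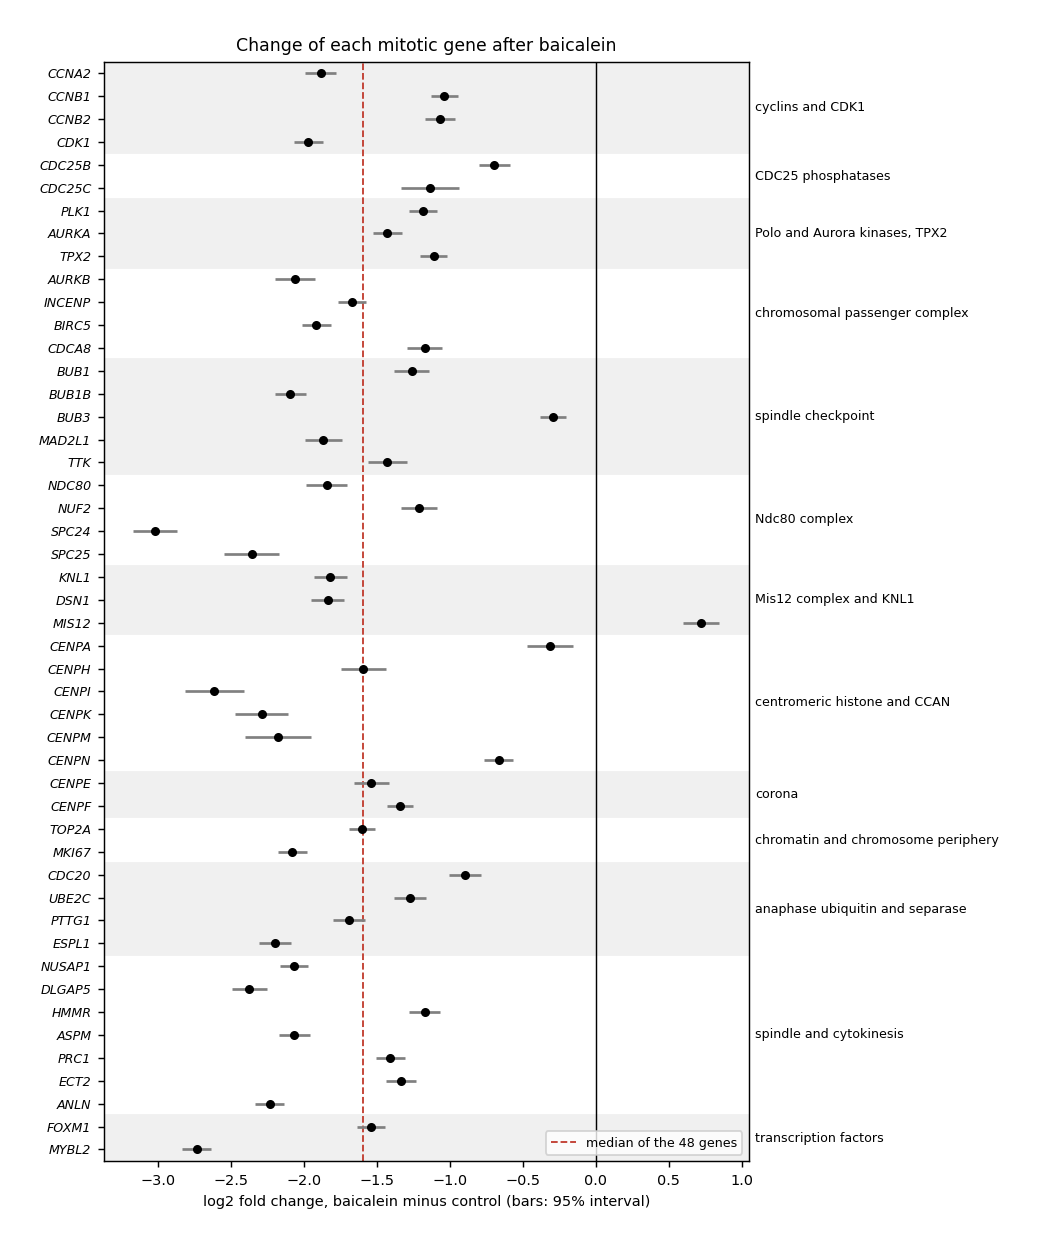
Log2 fold change of each gene, baicalein minus control, with its 95% interval from the edgeR fit, grouped by role. All points except that of MIS12 lie below 0, and the dashed line marks the median of -1.60.

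Among the genes of mitotic entry, CDK1 and cyclin A fell more than the B-type cyclins. The kinase gene CDK1 (ENSG00000170312, chromosome 10, positions 60778331 to 60794852 of GRCh38) stood at 252 and 233 CPM in the controls and at 62.5 and 61.4 CPM after baicalein. Its log2 fold change was -1.97 ± 0.05 (SE; adjusted p = 7.07e-20). CCNA2, which codes for cyclin A of S and G2 phase, stood at 113 and 108 CPM in the controls and at 30.5 and 29.4 CPM after baicalein, a 3.69-fold fall. Both baicalein libraries lay below both controls for each gene, as in 43.5% of all tested genes. CCNB1, which codes for the main mitotic cyclin B, stood at 142 and 133 CPM in the controls and at 68.1 and 66.0 CPM after baicalein. Its log2 fold change was -1.04 ± 0.05 (SE; adjusted p = 2.20e-15), and that of CCNB2 was -1.06 ± 0.05 (SE; adjusted p = 6.04e-15). The 95% intervals of CDK1 (-2.07 to -1.87) and CCNB1 (-1.13 to -0.94) did not overlap. Per kilobase of exon, CDK1 was at 1.88 and 1.86 in the controls and 0.977 and 0.991 after baicalein relative to CCNB1, so the 2 levels were near each other after baicalein. CCNB1 relative to CCNB2 was at 1.88 and 1.87 in the controls and 1.95 and 1.88 after baicalein, with overlapping groups. Exons of CCNA2 overlap those of EXOSC9 on the opposite strand over 144 bases, and the sources used here do not say if strand was used in counting.

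CDC25B and CDC25C, which code for phosphatases that remove the inhibitory phosphates from CDK1, fell less than CDK1 itself, whereas CDC25A, which is no member, had a log2 fold change of -2.55. CDC25B stood at 81.6 and 88.6 CPM in the controls and at 53.5 and 51.5 CPM after baicalein, with log2 fold change -0.70 ± 0.05 (SE; adjusted p = 2.37e-11). CDC25C stood at 14.7 and 14.6 CPM in the controls and at 7.26 and 5.93 CPM after baicalein and fell 2.20-fold. Its exons overlap those of FAM53C on the opposite strand over 276 bases. FAM53C had 16162 counts over the 4 libraries, against 1999 for CDC25C, so the level of CDC25C is uncertain if counting ignored strand.

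The Polo and Aurora kinase genes fell, AURKB more than AURKA. PLK1, which codes for the Polo-like kinase of mitotic entry and spindle assembly, stood at 114 and 118 CPM in the controls and at 50.2 and 51.9 CPM after baicalein, a 2.27-fold fall. AURKA, which codes for the Aurora kinase of centrosomes and spindle poles, stood at 119 and 113 CPM in the controls and at 43.7 and 42.4 CPM after baicalein. TPX2, which codes for the spindle protein that activates Aurora A, stood at 295 and 301 CPM in the controls and at 138 and 138 CPM after baicalein. The 3 genes had log2 fold changes of -1.18, -1.43 and -1.11. For each, both baicalein libraries lay below both controls, as in 43.5% of all tested genes. The other Aurora kinase gene, AURKB, belongs to the chromosomal passenger complex, which corrects faulty attachments at centromeres. It stood at 45.9 and 49.2 CPM in the controls and at 11.9 and 10.8 CPM after baicalein, with log2 fold change -2.06 ± 0.07 (SE; adjusted p = 8.62e-18) and a 95% interval of -2.19 to -1.92, against -1.53 to -1.33 for AURKA. Its scaffold gene INCENP fell 3.18-fold, BIRC5, which codes for survivin, 3.77-fold, and CDCA8, which codes for borealin, 2.25-fold. Per kilobase of exon, mean levels went from 36.1 to 8.63 for AURKB, from 40.3 to 12.6 for INCENP, from 42.3 to 11.2 for BIRC5 and from 19.5 to 8.69 for CDCA8. Borealin RNA, the scarcest of the 4 in controls, was thus at 0.559 and 0.521 in the controls and 0.910 and 1.11 after baicalein relative to AURKB.

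The 5 spindle checkpoint members were lower, as were 37.6% of all tested genes, and they fell over a wide range. BUB1B, which codes for the checkpoint protein BUBR1, stood at 111 and 113 CPM in the controls and at 27.2 and 25.2 CPM after baicalein, and its log2 fold change was -2.09 ± 0.05 (SE; adjusted p = 7.61e-20). MAD2L1, which codes for the MAD2 protein that inhibits CDC20, stood at 49.8 and 47.7 CPM in the controls and at 13.2 and 13.6 CPM after baicalein, a 3.65-fold fall. The checkpoint kinase genes TTK and BUB1 had log2 fold changes of -1.43 and -1.26. BUB3, which codes for the partner that brings BUB1 and BUBR1 to kinetochores, stood at 106 and 101 CPM in the controls and at 84.1 and 84.4 CPM after baicalein. Both its baicalein libraries lay below both controls, as in 43.5% of all tested genes. The log2 fold change of BUB3 was only -0.29 ± 0.04 (SE; adjusted p = 2.73e-06), and BUB3 did not pass a test against a 1.5-fold change. BUB3 per kilobase of exon was at 0.458 and 0.429 in the controls and 1.49 and 1.61 after baicalein relative to BUB1B.

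The subunit genes of the Ndc80 complex, the microtubule binder of the kinetochore, were lowered unequally. SPC24 (ENSG00000161888, chromosome 19, positions 11131520 to 11155808 of GRCh38) stood at 46.3 and 49.5 CPM in the controls and at 5.78 and 6.09 CPM after baicalein. Its log2 fold change, -3.02 ± 0.07 (SE; adjusted p = 3.79e-20), or an 8.10-fold fall, was the most negative of the 48 genes. SPC25, which codes for its direct partner at the kinetochore end of the complex, stood at 22.5 and 22.0 CPM in the controls and at 4.06 and 4.70 CPM after baicalein and fell 5.12-fold. At the microtubule-binding end, NDC80 stood at 40.8 and 37.1 CPM in the controls and at 11.1 and 10.6 CPM after baicalein. Its partner gene NUF2, the least lowered of the 4, stood at 58.1 and 52.3 CPM in the controls and at 23.4 and 24.4 CPM after baicalein. The 95% intervals of the 4 log2 fold changes did not overlap: -3.17 to -2.87 for SPC24, -2.54 to -2.17 for SPC25, -1.99 to -1.70 for NDC80 and -1.34 to -1.09 for NUF2. The complex holds the subunits in equal number, and in controls their RNA per kilobase of exon spanned 16.4 to 27.3 CPM. After baicalein it spanned 2.56 to 11.8 CPM. NUF2 relative to SPC24 was at 1.44 and 1.21 in the controls and 4.63 and 4.58 after baicalein, whereas NDC80 relative to SPC25 was at 1.13 and 1.05 in the controls and 1.70 and 1.40 after baicalein.

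MIS12 (ENSG00000167842, chromosome 17, positions 5486285 to 5490814 of GRCh38) was the exception in direction. It codes for a subunit of the Mis12 complex, which links the inner kinetochore to the Ndc80 complex. It stood at 23.0 and 21.1 CPM in the controls and at 37.0 and 35.7 CPM after baicalein, with log2 fold change 0.72 ± 0.06 (SE; adjusted p = 2.66e-10), and both baicalein libraries lay above both controls. DSN1, which codes for another subunit of the same complex, stood at 80.7 and 77.7 CPM in the controls and at 22.5 and 21.8 CPM after baicalein and fell 3.57-fold. The other subunit genes, NSL1 and PMF1, are no members, and had log2 fold changes of -0.57 and -1.15. Per kilobase of exon, DSN1 was at 3.94 and 4.13 in the controls and 0.684 and 0.684 after baicalein relative to MIS12, so the order of their levels turned. KNL1, which codes for the scaffold that recruits the BUB proteins, stood at 85.9 and 81.0 CPM in the controls and at 24.1 and 23.2 CPM after baicalein and fell 3.52-fold.

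**Figure D4:**
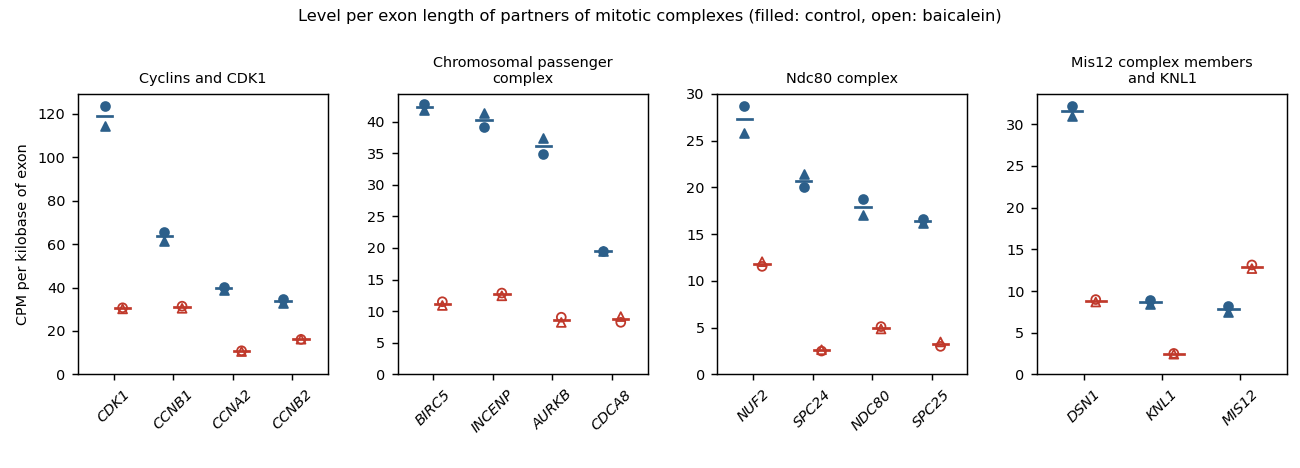
CPM per kilobase of annotated exon for partners in 4 mitotic assemblies, with filled blue points for control and open red points for baicalein libraries (circles replicate 1, triangles replicate 2) and bars for group means. MIS12 is the gene whose open points lie above the filled ones, and CDK1 comes down to the level of CCNB1.

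In the inner kinetochore, the gene of the centromeric histone fell 1.25-fold. Most members around it fell at least 2-fold, against 15.2% of all tested genes. CENPA, which codes for the histone H3 variant that marks centromeres, stood at 16.0 and 16.2 CPM in the controls and at 13.1 and 12.6 CPM after baicalein. Its log2 fold change was -0.32 ± 0.08 (SE; adjusted p = 7.13e-04), and it did not pass a test against a 1.5-fold change. Genes for its deposition also fell: HJURP, which codes for its chaperone, went from 53.9 ± 1.42 to 13.5 ± 0.270 CPM and OIP5 from 17.2 ± 1.20 to 3.57 ± 0.195 CPM. Of the constitutive centromere network, CENPI (ENSG00000102384, chromosome X, positions 101098218 to 101163681 of GRCh38) stood at 19.9 and 18.1 CPM in the controls and at 3.07 and 3.17 CPM after baicalein, with log2 fold change -2.61 ± 0.10 (SE; adjusted p = 1.41e-16). CENPK, a partner of CENPH and CENPI in the network, stood at 47.6 and 41.2 CPM in the controls and at 9.78 and 8.19 CPM after baicalein and fell 4.88-fold. CENPM and CENPH fell 4.53-fold and 3.01-fold. CENPN, whose product binds the CENPA nucleosome, stood at 77.5 and 77.2 CPM in the controls and at 47.5 and 50.1 CPM after baicalein, with log2 fold change -0.67 ± 0.05 (SE; adjusted p = 2.36e-11). Exons of CENPN overlap those of CMC2 on the opposite strand over 457 bases. At the outer corona, CENPE, which codes for a kinesin of chromosome congression, and CENPF fell 2.90-fold and 2.53-fold.

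TOP2A (ENSG00000131747, chromosome 17, positions 40388516 to 40417950 of GRCh38) codes for the topoisomerase that untangles sister chromatids. It was the member with the most RNA per kilobase of exon in both groups. It stood at 749.6 and 734 CPM in the controls and at 249 and 239.6 CPM after baicalein and fell 3.04-fold. MKI67, the proliferation marker of the chromosome surface, fell 4.22-fold, and 4.26% of all tested genes had a more negative log2 fold change.

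The genes of anaphase onset fell by amounts from 1.86-fold to 4.59-fold. CDC20, which codes for the APC/C activator held by the checkpoint, stood at 72.8 and 78.5 CPM in the controls and at 39.9 and 41.7 CPM after baicalein, with log2 fold change -0.89 ± 0.05 (SE; adjusted p = 4.65e-13). UBE2C, which codes for the ubiquitin-conjugating enzyme of the APC/C, fell 2.41-fold. ESPL1, which codes for separase, the protease that cleaves cohesin, stood at 125 and 139 CPM in the controls and at 29.1 and 28.4 CPM after baicalein. Its log2 fold change was -2.20 ± 0.05 (SE; adjusted p = 7.08e-20). PTTG1, which codes for the separase inhibitor securin, stood at 92.6 and 87.0 CPM in the controls and at 27.5 and 28.1 CPM after baicalein and fell 3.23-fold. Near-identical copies of PTTG1 exist in the genome, so its reads can be split among them. Securin RNA relative to separase RNA, per kilobase of exon, was at 4.27 and 3.63 in the controls and 5.47 and 5.71 after baicalein.

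All 7 spindle and cytokinesis members fell at least 2-fold, against 15.2% of all tested genes, with a median log2 fold change of -2.06. ANLN (ENSG00000011426, chromosome 7, positions 36389806 to 36453791 of GRCh38), which codes for the contractile ring protein anillin, stood at 368 and 345 CPM in the controls and at 77.1 and 74.5 CPM after baicalein. Its log2 fold change was -2.23 ± 0.05 (SE; adjusted p = 8.09e-21). DLGAP5, which codes for the spindle protein HURP, stood at 91.5 and 85.1 CPM in the controls and at 17.5 and 16.5 CPM after baicalein and fell 5.18-fold. NUSAP1 and ASPM, which code for a microtubule bundler and a spindle pole protein, both fell 4.18-fold. The cytokinesis genes PRC1 and ECT2, which code for the midzone bundler and the activator of RhoA, fell less, with log2 fold changes of -1.41 and -1.33. HMMR, which codes for a spindle protein that also binds hyaluronan, fell least of the 7 (-1.17). Exons of NUSAP1 and PRC1 overlap those of read-through or neighbouring transcripts on the same strand over 1787 and 2716 bases, so part of their reads may be counted elsewhere.

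Of the 2 transcription factor members, MYBL2 fell more than FOXM1. MYBL2 (ENSG00000101057, chromosome 20, positions 43667019 to 43716496 of GRCh38) stood at 324 and 342 CPM in the controls and at 49.6 and 50.7 CPM after baicalein, and its log2 fold change was -2.73 ± 0.05 (SE; adjusted p = 3.26e-22). FOXM1, which codes for the forkhead factor of late G2 genes, stood at 133 and 132 CPM in the controls and at 46.3 and 44.9 CPM after baicalein, with log2 fold change -1.54 ± 0.05 (SE; adjusted p = 1.66e-18). MYBL2 per kilobase of exon was at 3.19 and 3.41 in the controls and 1.41 and 1.48 after baicalein relative to FOXM1. Of the 14 listed genes of the MuvB, DREAM and NF-Y complexes, 6 were lower, 3 higher and 5 did not pass (median -0.06), shares near the 37.6% lower and 75% called of all tested genes. The E2F partner gene TFDP1 fell from 139.7 ± 3.37 to 52.9 ± 0.111 CPM, RBL1, which codes for the pocket protein p107, from 46.1 ± 2.85 to 14.9 ± 0.447 CPM, and the MuvB subunit gene LIN9 from 27.6 ± 0.825 to 12.8 ± 0.216 CPM. The genes NFYC and LIN54, which code for a subunit of NF-Y and for the DNA-binding subunit of MuvB, were higher, with log2 fold changes of 0.55 and 0.38.

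The ratios between members above were picked after their values had been seen, among 18 pairs computed. In 17 pairs the groups gave p = 0.333 in a two-sided exact permutation test, the smallest that 2 against 2 libraries allow, or 0.353 adjusted over the pairs. The same exact permutation test gave p = 0.667 for the remaining pair, CCNB1 with CCNB2. Annotated exon length stands for the length of the transcripts actually made, so a ratio of levels carries that error, but its change between groups does not depend on the length used. Across the 48 genes, Spearman's rho of the log2 fold change was -0.022 with the control level per kilobase and -0.033 with exon length. The genes share the 4 libraries and are not independent replicates.

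Beyond the members, other genes of the pathway were followed by lists, also chosen with earlier results of these data known. Of 126 further listed genes, all tested, 100 were lower, 13 higher and 13 did not pass, with a median log2 fold change of -0.81, against 37.6% lower and 37.4% higher of all tested genes. All 19 further kinetochore genes were lower (median -1.28), among them ZWINT, which fell from 289 ± 10.4 to 49.6 ± 1.04 CPM, CENPX (-2.63) and CENPU (-2.07). Of 8 genes of centromere deposition and cohesion protection 7 were lower, and BOD1, which codes for a regulator of chromosome biorientation, was higher (0.49). Of 7 further checkpoint genes 5 were lower, 1 higher and 1 did not pass. KNTC1 and ZWILCH, which code for partners in the RZZ complex, had log2 fold changes of -2.38 and -1.36, and TRIP13, which codes for the ATPase that remodels MAD2, -1.89. The third RZZ gene, ZW10, was higher (0.23), so the genes of that complex went in different directions.

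The APC/C genes, whose product the checkpoint restrains, were 11 lower, 5 higher and 2 not passing of 18 (median -0.26). Beside this and the next lists, 37.6% of all tested genes were lower and 37.4% higher. FBXO5, which codes for the APC/C inhibitor EMI1, fell from 31.9 ± 2.99 to 11.2 ± 0.360 CPM, and the subunit genes ANAPC15 and ANAPC11 had -0.99 and -0.76. Those of ANAPC16 and CDC16 were higher (0.61 and 0.52). Of 21 further genes of mitotic entry 18 were lower, 2 higher and 1 did not pass. CDC25A fell from 33.5 ± 0.115 to 5.75 ± 0.188 CPM, and CCNF and PKMYT1, which code for cyclin F and the inhibitory kinase MYT1, had -1.80 and -1.67. PPP2R2A, which codes for the phosphatase subunit B55 alpha that opposes CDK1, was higher (0.68), as was the kinase gene NEK9 (0.36). Among 27 spindle genes 26 were lower and TUBA1C, at 354 ± 21.3 to 355 ± 6.84 CPM, did not pass. TUBA1B, which codes for an alpha-tubulin, had -2.26, STMN1, which codes for the microtubule destabiliser stathmin, had -1.94 and TUBB4B -1.92, though reads shared between near-identical tubulin genes make their split uncertain. Of 12 further cytokinesis genes 8 were lower, 1 higher and 3 did not pass. CIT, RACGAP1 and MYH10, which code for citron kinase, a partner of ECT2 and a myosin, had -1.62, -1.37 and -0.95, and the abscission gene VPS4B had 0.44.

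**Figure D5:**
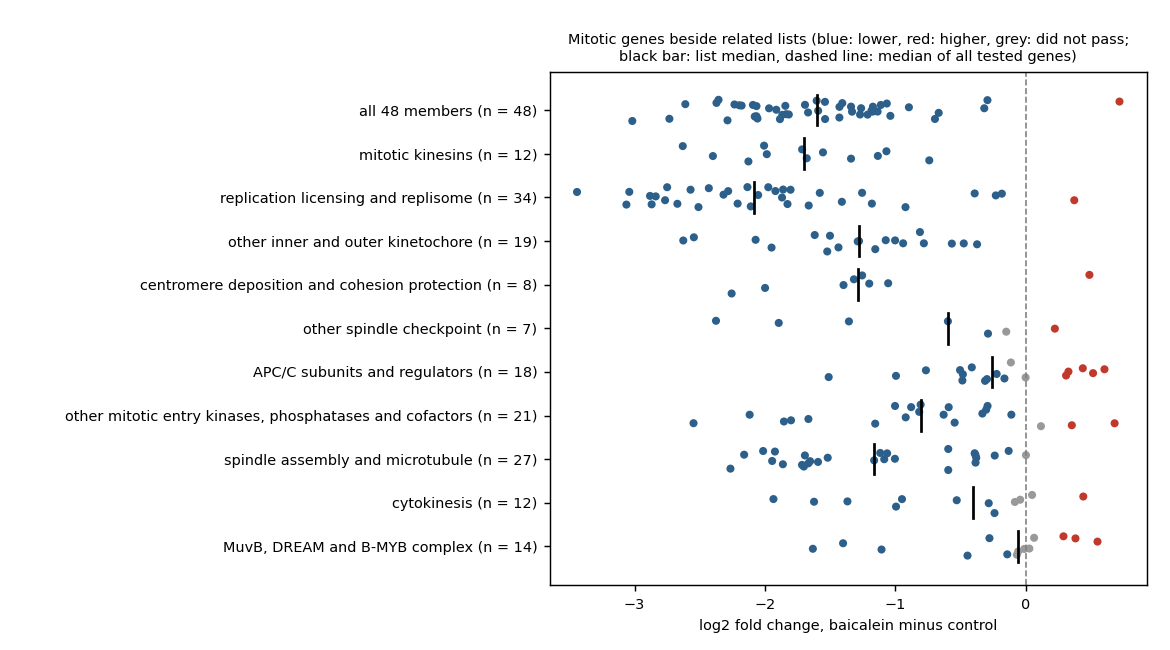
Log2 fold change of single genes (points; blue lower, red higher, grey did not pass) in the 48 mitotic genes and in related lists, with list medians as black bars and the median of all tested genes as a dashed line. The median of the 48 genes is -1.60, that of the replication list -2.08 and that of the MuvB list -0.06.

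The mitotic kinesins and the replication genes were the closest groups to set beside the 48 genes. All 12 mitotic kinesin genes were lower (median -1.70), among them KIF20A (-2.63), KIF18B (-2.40) and KIF20B (-1.99). Over all tested genes, 37.6% were lower and 37.4% higher. Of 34 genes of replication licensing and the replisome 33 were lower and the origin gene ORC4 was higher (0.37). Their median was -2.08, with MCM10 at -3.44, GINS2 at -3.04 and MCM3 at -2.87. The summed CPM of the 48 genes relative to that of the replication genes was 1.89 and 1.83 in the controls and 2.63 and 2.57 after baicalein. Relative to the summed CPM of the kinesin genes it was 5.40 and 5.30 in the controls and 5.85 and 5.84 after baicalein. Both ratios were higher after baicalein in both libraries. Each had p = 0.333 in a two-sided exact permutation test, the smallest possible.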

How the data were processed

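Isolation of poly(A) RNA used magnetic beads, and library preparation followed Illumina's standard protocols, per the labels. Tools in the submitters' processing notes are STAR 2.7.8a, RSEM 1.3.3, cutadapt 2.3, FastQC 0.11.8 and DESeq2 1.34, with genome build GRCh38 and no roles stated. The deposited values are unscaled whole-number counts, 1 row per gene, with row totals of at least 10, and 0 columns belonged to other samples. The sources used here do not give the annotation release or the use of strand.

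Columns were matched by sample descriptions, and Ensembl identifiers to symbols through a names table (17419 of 20515 had a symbol). Positions and exon lengths came from GENCODE 29, which may not be the authors' release. Replicates differed beyond sampling noise (mean chi-square per gene 9.61 in controls, 2.43 in baicalein libraries). The median gene differed less (1.38 in controls, 0.702 in baicalein libraries). The test was the robust quasi-likelihood F test of edgeR 4.0.16 (R 4.3.3) over 4 libraries without covariates. TMM scaling and filterByExpr with a minimum count of 10 kept 18369 genes, over which p-values were adjusted (threshold 0.05). The SE is the absolute log2 fold change over the square root of F. The methods were tested on simulated data in which few genes changed, as many up as down. A change as broad as the one seen here was not simulated. The members and lists were chosen with earlier results of these data known. All 48 members are named, and of each other list up to 3 genes with the smallest adjusted p and up to 2 against the list's majority. A gene that this rule names is not reported here. NSL1, PMF1 and TUBA1C were added after their values were seen.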

Additional observations from a re-analysis of the deposited data

How the results depend on the processing

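The counts of 47 lower and 1 higher mitotic genes held with DESeq2 size factors, library totals, no filter, a minimum of 50 counts in 2 libraries, the Wald test of DESeq2 1.42.0 and without each library in turn (47 to 47 lower and 1 to 1 higher). With the replicate number as a block they were 47 and 1 as well. The numbers pair the libraries by name alone (correlation of same-numbered deviations 0.014), so the block is no evidence of pairing. A test against a 1.5-fold change left 45 lower, losing BUB3 and CENPA (19.5% of all tested genes were lower by it and 16.8% higher), and it left 66 lower and 1 higher among the other pathway genes, against 100 and 13. Those counts ran from 96 to 101 lower and from 13 to 15 higher without each library in turn, and were 100 and 14 with the block. No member changed direction in any setting. Scaling by library totals alone moved the median log2 fold change of all genes from 0.0017 to -0.10 and that of the members from -1.60 to -1.70. With that scaling 107 of the other pathway genes were lower and 13 higher, against 100 and 13. Lower genes among all tested rose from 6902 to 7735. The share of counts taken by the members differed by -0.489 to -0.465 percentage points without each library in turn. With a library left out, the lone sample is taken to vary as the other group does.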
